A study of Arabidopsis thaliana with 14 samples.

Results

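The ATG genes encode the core machinery of autophagy, and 8 of them could be read in microdissected compartments of very young Arabidopsis seeds. They are ATG3 (AT5G61500), ATG8B (AT4G04620), ATG8C (AT1G62040), ATG8D (AT2G05630), ATG8E (AT2G45170), ATG8F (AT4G16520), ATG8G (AT3G60640) and ATG8H (AT3G06420). They were taken as all genes whose probe set carries a single gene symbol in the array annotation and whose symbol is ATG followed directly by a digit. Of 13350 genes with such a probe set, 8 met this rule. Each had 1 probe set, none of these probe-set names carries the suffix that marks probes shared between genes, and all 8 passed the filter on dim probe sets.

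In autophagy a double membrane grows around cytoplasm, closes into an autophagosome and delivers its content to the vacuole, where it is broken down. ATG8 is a small ubiquitin-like protein that is attached to the lipid phosphatidylethanolamine on that membrane, where it takes part in membrane growth and binds cargo receptors. ATG3 is the enzyme that carries out the last step of this attachment, acting like an E2 enzyme of the ubiquitin pathway. Yeast has a single ATG8 gene, while Arabidopsis has a family of them, of which ATG8H and ATG8I end at the glycine that is joined to the lipid and so need no trimming by the protease ATG4. In plants, autophagy recycles nutrients in starved and ageing tissue, and in seeds the chalazal end is where maternal nutrients enter.

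Whole seed sections and 6 compartments were freed by laser microdissection from fixed, paraffin-embedded siliques 1 to 1.1 cm long, from untreated plants of genotype Ws-0 aged 38 to 46 days and grown at 20 °C in continuous light. The seeds held embryos of 2 to 8 cells. There were 2 arrays for each of 7 groups, which were the whole seed, the embryo proper, the chalazal, micropylar and peripheral endosperm, the chalazal seed coat and the general seed coat. From 2 to 5 ng of total RNA were amplified for each ATH1 array, a short-oligonucleotide array with 22746 probe sets besides its controls. No group carried a transgene or a treatment. The labels call the arrays biological replicates but do not say which plants each region came from. The p-values thus measure the spread between the 2 arrays of a group, and not a spread between known plants. That spread was pooled over the 7 groups and drawn toward the spread of other probe sets. The peripheral endosperm is titled so, while its source label speaks of cellularized endosperm.

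The 14 compartment markers with a probe set each had their highest compartment mean in their own tissue, and none was listed at 0. Replicate arrays correlated at r = 0.852 in the chalazal endosperm and 0.858 in the micropylar endosperm, against 0.9 to 0.93 in the other groups. The widest spread between arrays also lay in the chalazal and micropylar endosperm. Pooled over tested probe sets as a root mean square, the log2 SD there came to 0.78 and 0.76, while every other group had 0.52 to 0.57. Signals below are the deposited intensities, which share a common trimmed mean on every array. A gene's signal can be compared between groups but not with another gene's, since each probe set binds with its own strength. Fewer cells of a type and less RNA per cell cannot be told apart in such bulk samples.

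Differences are on the scale of log2(signal + 35.9), which understates the change of dim genes. A gene was called where limma's moderated test gave an adjusted p (Benjamini-Hochberg over all 17336 tested probe sets) under 0.05 together with a change of 2-fold or more. Among the 6 compartments, 7 of the 8 ATG genes differed at all in the F test over compartments, a call that 62.5% of all tested probe sets also met. The adjusted p of this test lay between 4.54e-08 for ATG8F and 0.0262 for ATG3, and ATG8H missed it at 0.0626. All 8 had their highest compartment mean in a chalazal compartment, 5 in the chalazal endosperm and 3 in the chalazal seed coat, against 17.6% and 18.4% of all tested probe sets, or 36% in either of the pair. On the log2 scale the lowest mean was in the embryo proper for 6 genes and in the micropylar endosperm for 2, ATG8B and ATG8G, against 16.9% and 14.4% of all tested probe sets. For ATG8G this place rests on 1 array at 23.7, and its mean signal was 187 for the micropylar and 120 for the peripheral endosperm.

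**Figure D1:**
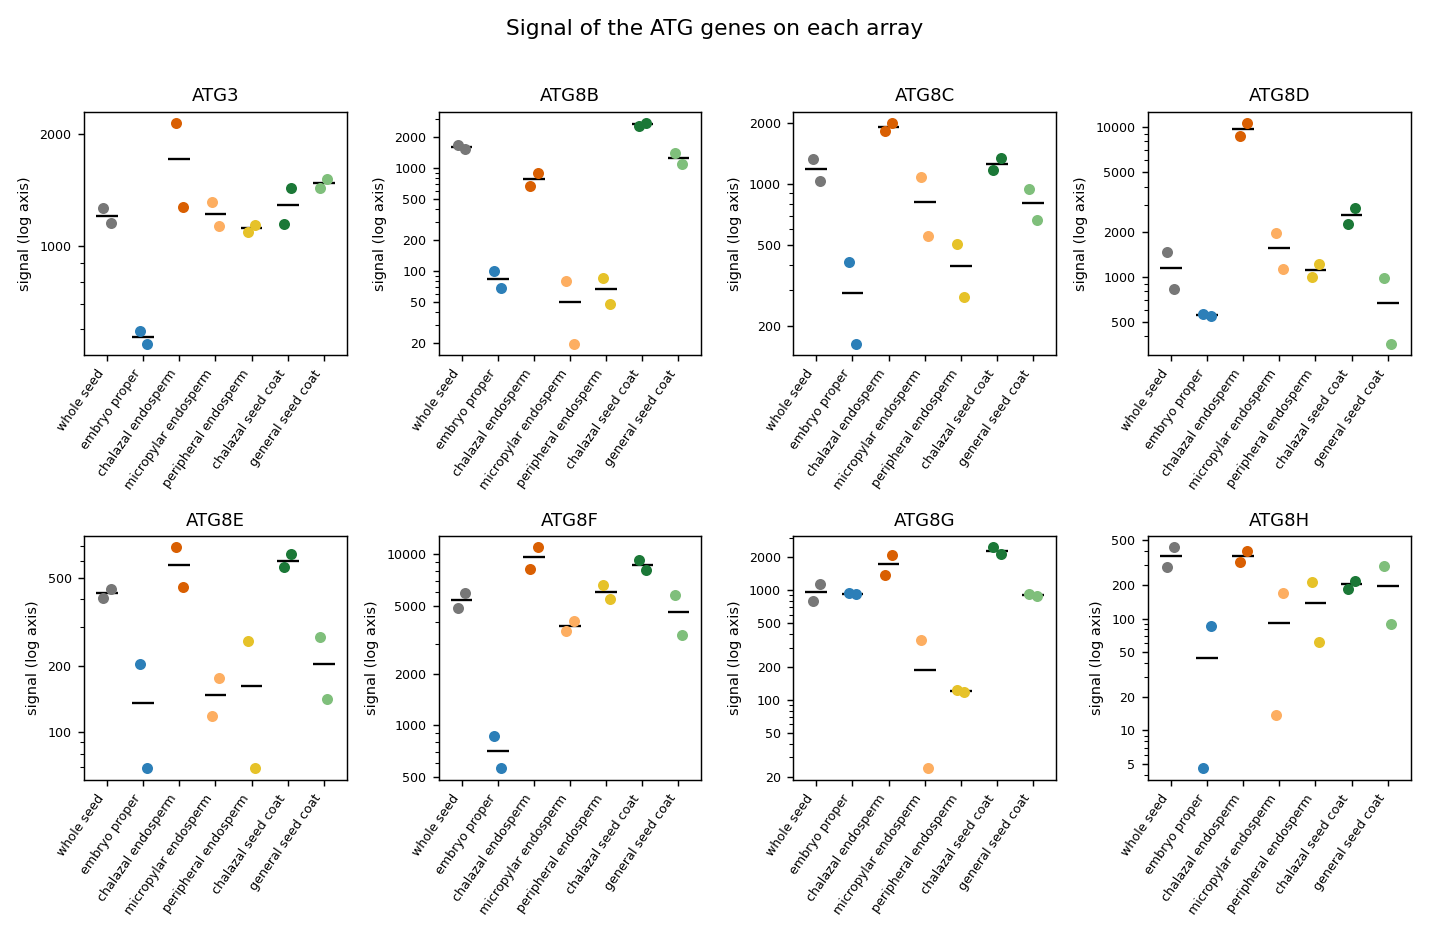
Signal of the 8 ATG genes (vertical axis, scaled intensity, log scale) in the 7 groups (horizontal axis), with a point for each of the 2 arrays and a bar at their mean. ATG8D stands highest in the chalazal endosperm at 8752 and 10658, ATG8B and ATG8G stand highest in the chalazal seed coat, and ATG8F stands lowest in the embryo proper.

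The chalazal endosperm, a cyst of endosperm at the end of the seed where the vascular strand of the mother plant ends, had 6 ATG genes called higher, a count that was 3 without its second array. ATG8D had signals of 8752 and 10658 there. In the other compartments it had 561 and 551 for the embryo proper, 1964 and 1128 for the micropylar endosperm, 994 and 1213 for the peripheral endosperm, 2260 and 2898 for the chalazal seed coat and 981 and 357 for the general seed coat. Both chalazal endosperm arrays lay above all 10 others, and the next in order, the chalazal seed coat, was itself above the remaining 4 compartments. Against the other 5 compartments on average ATG8D was higher by 3.13 on the log2 scale (SE 0.34, limma adjusted p = 5.99e-07), a fold of 8.74. The step from the chalazal seed coat up to the chalazal endosperm was 1.9 (SE 0.44, adjusted p = 0.00248), and no other step between neighbours in the order of ATG8D passed.

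ATG8C was also highest there. Its signals were 1831 and 2005 for the chalazal endosperm, against 1180 and 1342 for the chalazal seed coat, 1088 and 553 for the micropylar endosperm, 952 and 667 for the general seed coat, 510 and 280 for the peripheral endosperm and 416 and 164 for the embryo proper. The chalazal endosperm arrays did not overlap any other compartment, and the difference was 1.6 (SE 0.38, adjusted p = 0.00244). ATG8F had 8186 and 10946 for the chalazal endosperm, which overlapped the 9257 and 8106 of the chalazal seed coat. It was called higher against the other 5 compartments by 1.37 (SE 0.24, adjusted p = 0.000173).

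ATG8B, ATG8E and ATG8G were called higher as well, though their highest mean lay in the chalazal seed coat. ATG8G had 1367 and 2082 for the chalazal endosperm and differed by 1.65 (SE 0.47, adjusted p = 0.00958). ATG8B had 671 and 901 and differed by 1.34 (SE 0.39, adjusted p = 0.0113). Its call was lost with array weights (limma adjusted p = 0.05). It was also lost, at a difference of 0.85, with the median of all signals added in place of 35.9. ATG8E, at 688 and 456, differed by 1.33 (SE 0.47, adjusted p = 0.0348), and its call too was lost with array weights (limma adjusted p = 0.124).

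Without the second chalazal endosperm array ATG8B, ATG8E and ATG8G were no longer called, at adjusted p = 0.125, 0.077 and 0.133, in ranges over 22 alternatives of 0.00428 to 0.125, 0.0153 to 0.218 and 0.000194 to 0.133. ATG8E lost its call in 9 of these alternatives, among them those without the first chalazal endosperm array (adjusted p = 0.218), the second embryo array (0.0586), the second peripheral endosperm array (0.0556), the first chalazal seed coat array (0.0532) and the second general seed coat array (0.0564).

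ATG8H and ATG3 were not called in the chalazal endosperm. ATG8H had 320 and 400 there, both above all 10 other compartment arrays, of which the highest was a general seed coat array at 298. Its difference of 1.49 (SE 0.58) missed the threshold at adjusted p = 0.0516, in a range of 0.0182 to 0.241, and passed in 6 of the 22 alternatives. The 4 of these that leave out an array were those without the second embryo array (adjusted p = 0.0376), the second micropylar endosperm array (0.0182), the first peripheral endosperm array (0.0424) and the first general seed coat array (0.041). ATG3 had 2144 and 1278, and its difference was 0.6 (SE 0.29, adjusted p = 0.125).

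Counted together, 6 of 8 ATG genes were called higher in the chalazal endosperm and 0 lower, where 12.2% of all tested probe sets were called higher and 18.7% lower. Their median difference was 1.43, beside -0.25 over all tested probe sets. Both chalazal endosperm arrays lay above all 10 other compartment arrays for 3 of the 8 genes, against 8.85% of all tested probe sets.

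Signals of seed coat markers were read on the same arrays. These markers were chosen with earlier results of these data known, so their sums do not measure carried-over RNA. The sum of the 2 chalazal seed coat markers, RR22 and SWEET10, was 131 to 264 in the chalazal endosperm, against 21250 to 23468 in the chalazal seed coat. The sum of 4 general markers of seed coat was 4769 to 4884 in the chalazal endosperm, above the 1853 to 2634 of the micropylar and the 1734 to 3822 of the peripheral endosperm, with 16895 to 19112 in the chalazal and 38908 to 39759 in the general seed coat. The 2 marker sets differed in how far their sums in the chalazal endosperm lay below those in the chalazal seed coat. The part of seed coat RNA in the ATG signals of the chalazal endosperm was not tested. For ATG8D, the signal in both seed coat regions was 2898 or less, below the chalazal endosperm. ATG8B, ATG8E and ATG8G had higher means in the chalazal seed coat (2682, 600 and 2293) than in the chalazal endosperm (786, 572 and 1724). The other 5 genes, ATG8D among them, had their highest compartment mean in the chalazal endosperm.

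Within the endosperm the chalazal region was set against each of the other regions. Against the peripheral endosperm 5 ATG genes were called higher and 0 lower, where 11.3% of all tested probe sets were called higher and 15.7% lower. The differences were 3.47 for ATG8G (SE 0.6, adjusted p = 0.000186), 3.1 for ATG8D (SE 0.44, adjusted p = 2.5e-05), 3 for ATG8B (SE 0.5, adjusted p = 0.000131), 2.23 for ATG8C (SE 0.48, adjusted p = 0.00159) and 1.77 for ATG8E (SE 0.61, adjusted p = 0.0353). ATG8G had 1367 and 2082 for the chalazal endosperm, against 123 and 117 for the peripheral endosperm, a fold of 11.1.

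Against the micropylar endosperm 5 were called higher and 0 lower, where 10.3% of all tested probe sets were called higher and 13.3% lower. They were ATG8G at 3.51 (SE 0.6, adjusted p = 0.000192), ATG8B at 3.34 (SE 0.5, adjusted p = 4.42e-05), ATG8D at 2.67 (SE 0.44, adjusted p = 0.000137), ATG8E at 1.72 (SE 0.61, adjusted p = 0.0447) and ATG8F at 1.3 (SE 0.31, adjusted p = 0.00401). ATG8C differed by 1.26 and missed the threshold at adjusted p = 0.0639, and ATG8H differed by 1.96 and missed it at 0.0611. Between the micropylar and peripheral endosperm themselves 0 of 8 were called by limma, at unadjusted p of 0.0506 or more, where 12.2% of all tested probe sets were.

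The call of ATG8E within the endosperm was the least steady. It was lost in 5 of 22 alternatives against the peripheral endosperm, among them those without the second peripheral array (adjusted p = 0.351) or either chalazal endosperm array (0.149 and 0.0542), in a range of 0.02 to 0.351. Against the micropylar endosperm it was lost in 13 of 22, in a range of 0.0215 to 0.174. Those that leave out an array there were each without either array of the micropylar endosperm, the chalazal endosperm, the chalazal seed coat, the general seed coat or the whole seed.

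**Figure D2:**
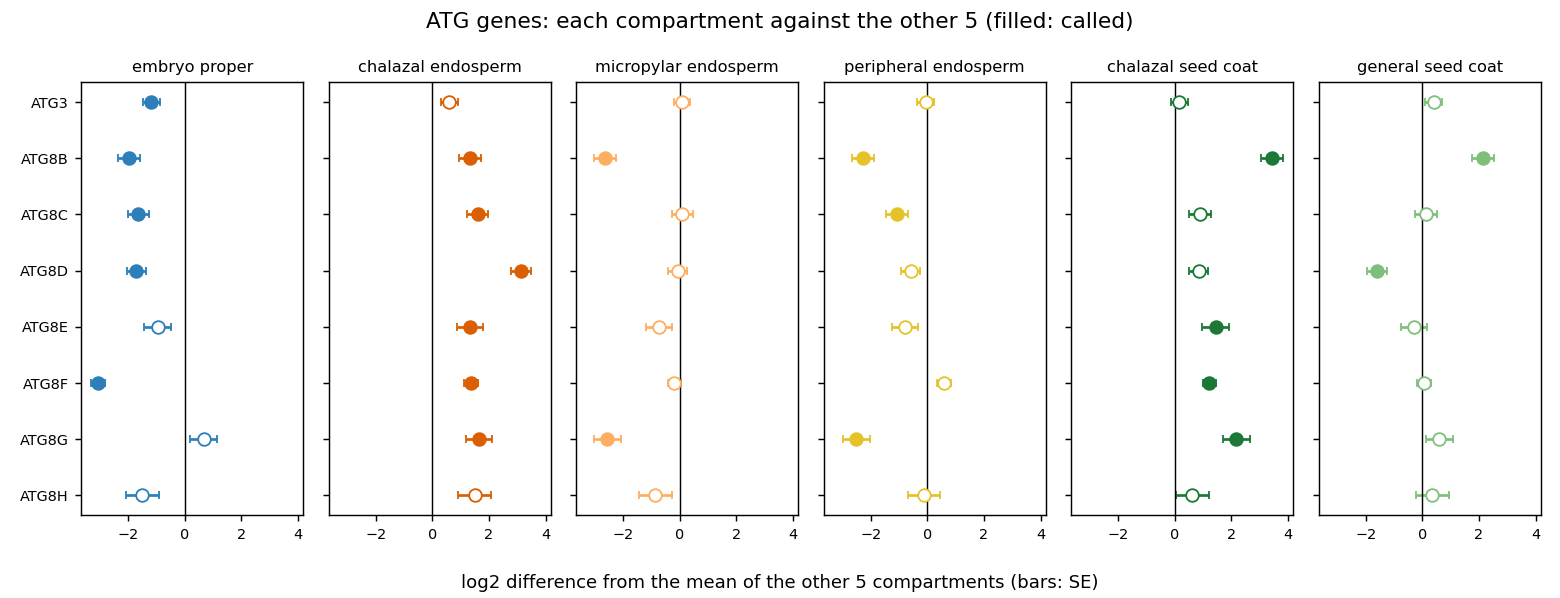
Difference of each ATG gene in a compartment from the mean of the other 5 compartments (horizontal axis, log2 scale, with bars of 1 SE), in 6 panels for the 6 compartments. Filled points passed the test. All 8 points lie right of 0 in the chalazal endosperm and in the chalazal seed coat, with 6 and 4 filled.

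The chalazal seed coat is maternal tissue that faces the chalazal endosperm. ATG8B was highest there. Its signals were 2598 and 2767 for the chalazal seed coat, against 1405 and 1101 for the general seed coat, 671 and 901 for the chalazal endosperm, 101 and 68.7 for the embryo proper, 86.7 and 48.7 for the peripheral endosperm and 80.2 and 19.8 for the micropylar endosperm. The arrays fell into a high set of both coats and the chalazal endosperm and a low set of the other 3 compartments, with no overlap. The difference of the chalazal seed coat from the other 5 compartments was 3.43 (SE 0.39, adjusted p = 1.16e-06), a fold of 10.8. In the order of its levels only the step from the embryo proper up to the chalazal endosperm passed, at 2.77 (SE 0.5, adjusted p = 0.000211).

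ATG8G had 2461 and 2124 for the chalazal seed coat, against 1367 and 2082 for the chalazal endosperm, 942 and 927 for the embryo proper, 921 and 889 for the general seed coat, 350 and 23.7 for the micropylar endosperm and 123 and 117 for the peripheral endosperm. Both chalazal seed coat arrays were above all others, by little over the second chalazal endosperm array. The difference was 2.17 (SE 0.47, adjusted p = 0.00138). The step from the peripheral endosperm up to the general seed coat, at 2.59 (adjusted p = 0.00253), was the only one between neighbours that passed.

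ATG8E had 559 and 641 for the chalazal seed coat and was called higher by 1.44 (SE 0.47, adjusted p = 0.0274). Its call was lost in 4 of 22 alternatives, among them those without either chalazal seed coat array (adjusted p = 0.137 and 0.203, in a range of 0.0127 to 0.203). ATG8F had 9257 and 8106 and was called higher by 1.22 (SE 0.24, adjusted p = 0.000628). ATG8C at 0.89 (adjusted p = 0.0856), ATG8D at 0.85 (0.074), ATG8H at 0.62 (0.465) and ATG3 at 0.16 (0.723) were not called.

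In sum 4 of 8 ATG genes were called higher in the chalazal seed coat and 0 lower, where 15.5% of all tested probe sets were called higher and 9.92% lower. The median difference of the 8 was 1.06, beside 0.04 over all tested probe sets. Both arrays lay above all 10 other compartment arrays for ATG8B and ATG8G, which 8.45% of all tested probe sets did. The sum of 4 endosperm markers was 311 to 525 in the chalazal seed coat, against 7258 to 9370 in the chalazal endosperm.

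Within the seed coat, 1 of 8 was called between the regions, where 4.18% of all tested probe sets were called higher and 4.22% lower in the chalazal one. This was ATG8D, at 2260 and 2898 for the chalazal seed coat and 981 and 357 for the general seed coat, with a difference of 2.04 (SE 0.44, adjusted p = 0.00448). The call was lost without the second chalazal seed coat array (adjusted p = 0.0694) or the second general seed coat array (0.12), in a range of 0.00116 to 0.12. ATG8F differed by 0.97 (adjusted p = 0.0598), and passed without the first general seed coat array at 1.34 (adjusted p = 0.0308, in a range of 0.00904 to 0.449).

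Whether the chalazal difference was larger in the endosperm than in the seed coat was tested as an interaction, chalazal minus peripheral endosperm against chalazal minus general seed coat. By limma 0 of 8 ATG genes were called, where 15.8% of all tested probe sets were, and 3 had an unadjusted p under 0.05. These were ATG8B at 1.91 (SE 0.71, adjusted p = 0.0721), ATG8G at 2.16 (SE 0.85, adjusted p = 0.0895) and ATG8C at 1.6 (SE 0.69, adjusted p = 0.121). ATG8B and ATG8G passed without either micropylar endosperm array, and in no other alternative.

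The embryo proper, the part of the young embryo above the suspensor, had the lowest levels of most ATG genes. ATG8F had 867 and 560 there. It had 8186 and 10946 for the chalazal endosperm, 9257 and 8106 for the chalazal seed coat, 6576 and 5464 for the peripheral endosperm, 5759 and 3390 for the general seed coat and 3561 and 4094 for the micropylar endosperm. Both embryo arrays were far below every other array, and the other compartments formed a run in which no step between neighbours passed. The difference was -3.06 (SE 0.24, adjusted p = 5.46e-08), a fold of 8.34, and the step from the embryo up to the micropylar endosperm alone was 2.39 (SE 0.31, adjusted p = 1.56e-05).

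ATG3, the single conjugating enzyme among the 8, had 593 and 548 for the embryo proper, against 2144 and 1278 for the chalazal endosperm, 1432 and 1519 for the general seed coat, 1145 and 1430 for the chalazal seed coat, 1311 and 1131 for the micropylar endosperm and 1092 and 1144 for the peripheral endosperm. Both embryo arrays were below all 10 others, and the remaining compartments overlapped. The difference was -1.18 (SE 0.29, adjusted p = 0.00506). It kept its size but missed the threshold without either embryo array, at -1.23 (adjusted p = 0.0552) and -1.13 (adjusted p = 0.0836), in a range of 0.000989 to 0.0836.

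ATG8D fell by 1.71 in the embryo (SE 0.34, adjusted p = 0.000844), and its 561 and 551 lay within the 357 to 981 of the general seed coat. ATG8C, at 416 and 164, fell by 1.64 (SE 0.38, adjusted p = 0.00264), and this call was lost without the second embryo array at adjusted p = 0.175, in a range of 0.000526 to 0.175. ATG8B, at 101 and 68.7, fell by 1.98 (SE 0.39, adjusted p = 0.000711), while its level overlapped those of the micropylar and peripheral endosperm.

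ATG8G was the exception in the embryo. At 942 and 927 it stood beside the general seed coat and above both the micropylar and the peripheral endosperm, with a difference from the other 5 compartments of 0.66 (SE 0.47, adjusted p = 0.319). ATG8E had 203 and 69.3 and a difference of -0.96 (adjusted p = 0.141). ATG8H had 4.57 and 85.3, the widest ratio between replicates of any of its groups, and a difference of -1.5 (SE 0.58, adjusted p = 0.0601). That of ATG8H passed in 4 of 22 alternatives, 3 of them without the first micropylar endosperm (adjusted p = 0.0225), the second peripheral endosperm (0.0498) or the second general seed coat array (0.047), in a range of 0.0225 to 0.594.

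In all, 5 of 8 ATG genes were called lower in the embryo proper and 0 higher, where 12.1% of all tested probe sets were called lower and 13.2% higher. The median difference of the 8 was -1.57, beside -0.07 over all tested probe sets. For 2 of the 8, ATG3 and ATG8F, both embryo arrays lay below all 10 others, which 4.75% of all tested probe sets did. The count was 3 without the second embryo array.

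The micropylar endosperm, which surrounds the embryo, and the peripheral endosperm, a layer around the large central vacuole, shared low levels of ATG8B and ATG8G. In the micropylar endosperm ATG8B fell by 2.66 (SE 0.39, adjusted p = 4.06e-05) and ATG8G fell by 2.56 (SE 0.47, adjusted p = 0.000434). In the peripheral endosperm ATG8B fell by 2.26 (SE 0.39, adjusted p = 0.000255) and ATG8G fell by 2.51 (SE 0.47, adjusted p = 0.000514). The second micropylar array was low for both genes, 19.8 for ATG8B and 23.7 for ATG8G, and below the added 35.9 in each case. Without that array ATG8G was at -1.21 in the micropylar endosperm (adjusted p = 0.0702, in a range of 7.54e-06 to 0.0702).

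The counts there were 0 higher and 2 lower for the micropylar endosperm, where 9.86% of all tested probe sets were called higher and 11.5% lower. They were 0 higher and 3 lower for the peripheral endosperm, where 10.2% were called higher and 11.3% lower. The third gene in the peripheral endosperm was ATG8C, at 510 and 280, with a difference of -1.08 (SE 0.38, adjusted p = 0.0426). It was lost in 14 of 22 alternatives, with adjusted p between 0.0244 and 0.419, and without the second peripheral array it was -0.68 (adjusted p = 0.419). The other arrays without which it was lost were both of the chalazal seed coat, both of the whole seed and the first of the embryo proper, the micropylar endosperm, the peripheral endosperm and the general seed coat. The count in the micropylar endosperm was 1 without its second array.

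ATG8F kept a high signal in the peripheral endosperm, 6576 and 5464, with a difference of 0.59 (adjusted p = 0.0847). ATG3 and ATG8D were not called in either region, with differences from -0.59 to 0.08. ATG8H varied widely between replicates in these tissues, with 13.7 and 170 for the micropylar and 212 and 61.4 for the peripheral endosperm. For ATG8H, 3 of 14 arrays lay under the 40th percentile of all probe sets on their array, against 4 for ATG8B, 1 each for ATG8E and ATG8G and 0 for the rest.

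In the general seed coat 6 of the 8 ATG genes were not called. ATG8B, at 1405 and 1101, was higher by 2.13 (SE 0.39, adjusted p = 0.000351), while ATG8D, at 981 and 357, fell by 1.6 (SE 0.34, adjusted p = 0.0016). The 2 calls made 1 higher and 1 lower of 8, near the 13.2% and 8.07% of all tested probe sets that were called higher and lower. Without the second general seed coat array ATG8D was at -0.91 (adjusted p = 0.155, in a range of 0.000725 to 0.155). The other 6 genes had differences from -0.3 for ATG8E to 0.6 for ATG8G.

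Set as a whole, the 3 endosperm regions against the 2 seed coat regions, 2 of 8 were called lower and 0 higher, where 22.2% of all tested probe sets were called lower and 14% higher. These were ATG8B at -3.31 (SE 0.32, adjusted p = 7.05e-08) and ATG8G at -2.1 (SE 0.39, adjusted p = 0.000175). ATG8D had an adjusted p of 0.00789 with a difference just under the 2-fold limit (1 after rounding, SE 0.29), and passed in 6 of 22 alternatives with adjusted p over all of them from 0.00131 to 0.0809. The 5 of these that leave out an array, with their log2 differences, were those without the second micropylar (1.13), the first peripheral (1.04) or the first chalazal endosperm array (1.05), the second chalazal seed coat array (1.09) or the first general seed coat array (1.34). The other 5 genes had differences from -0.52 to -0.04. The average over regions hid the chalazal endosperm, where ATG8B stood at 671 and 901 while it stood at 86.7 or less in the other endosperm.

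Whole seed sections were set against the average of the 6 compartments. ATG8B was the single call, at 1667 and 1530 for the whole seed and higher by 2.12 (SE 0.38, adjusted p = 0.000867), where 9.09% of all tested probe sets were called higher and 1.64% lower. These values lay between those of the chalazal and of the general seed coat. ATG8D had 1470 and 830 for the whole seed, below both chalazal tissues, with a difference of -0.48 (adjusted p = 0.414). In the same sections the sum of 4 seed coat markers was 25487 to 29113 and that of 4 endosperm markers 1105 to 1545, against 38908 to 39759 for the coat markers in the general seed coat and 9646 to 11850 for the endosperm markers in the peripheral endosperm. The part of tissue makeup in the ATG8B value was not tested.

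The 8 genes differed in how far their levels spread over the compartments. Between the highest and the lowest compartment mean ATG8B spanned 5.08, ATG8D 4.03, ATG8G 3.94, ATG8F 3.7, ATG8C 2.7, ATG8H 2.49, ATG8E 2 and ATG3 1.48 on the log2 scale. Of the 15 pairs of compartments, 10 were called for ATG8B and for ATG8D, 8 for ATG8F and ATG8G, 6 for ATG8C and ATG8E, 4 for ATG3 and 1 for ATG8H. That is 53 of 120 gene and pair combinations, or 44.2%, where 25% of all tested probe sets and pairs were called. For ATG3, ATG8C, ATG8E and ATG8H no step between neighbours in the order of levels passed. For ATG3 the step from the embryo up to the peripheral endosperm was 0.93 (adjusted p = 0.102), and the others were 0.2 or less.

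**Figure D3:**
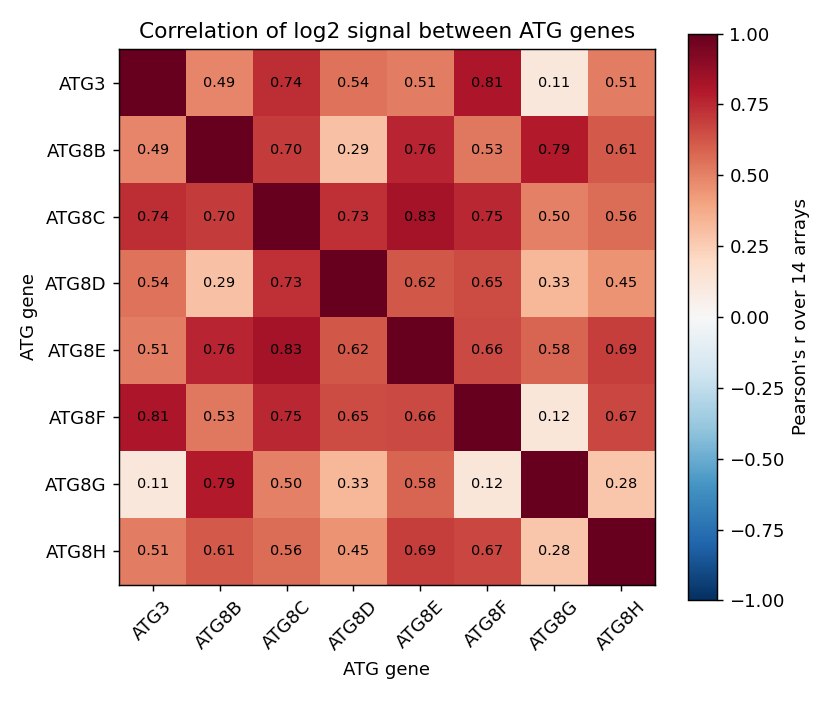
Pearson correlation of log2 signals over the 14 arrays for each pair of the 8 ATG genes (both axes list the genes, colour and printed number give r). All 28 values are above 0, from 0.11 to 0.83.

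Over the 14 arrays the log2 signals of all 28 pairs of ATG genes correlated above 0, with a median r of 0.6. These arrays share groups and scaling, so the values describe the arrays and carry no test. The highest were ATG8C with ATG8E at 0.83 and ATG3 with ATG8F at 0.81. The lowest were ATG3 with ATG8G at 0.11 and ATG8F with ATG8G at 0.12. ATG8B and ATG8D, the genes with the widest spans, correlated at only 0.29, while ATG8B and ATG8G correlated at 0.79.

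Among 9757 other named genes, those most like ATG8D over the 14 arrays were AT5G38710 (r = 0.94), AT1G67800 (r = 0.932) and AT1G05340 (r = 0.925). Those most like ATG8B were BGLU40 (r = 0.984), AT1G22930 (r = 0.982) and AT2G26600 (r = 0.975). BGLU40 is named as a beta glucosidase.

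**Figure D4:**
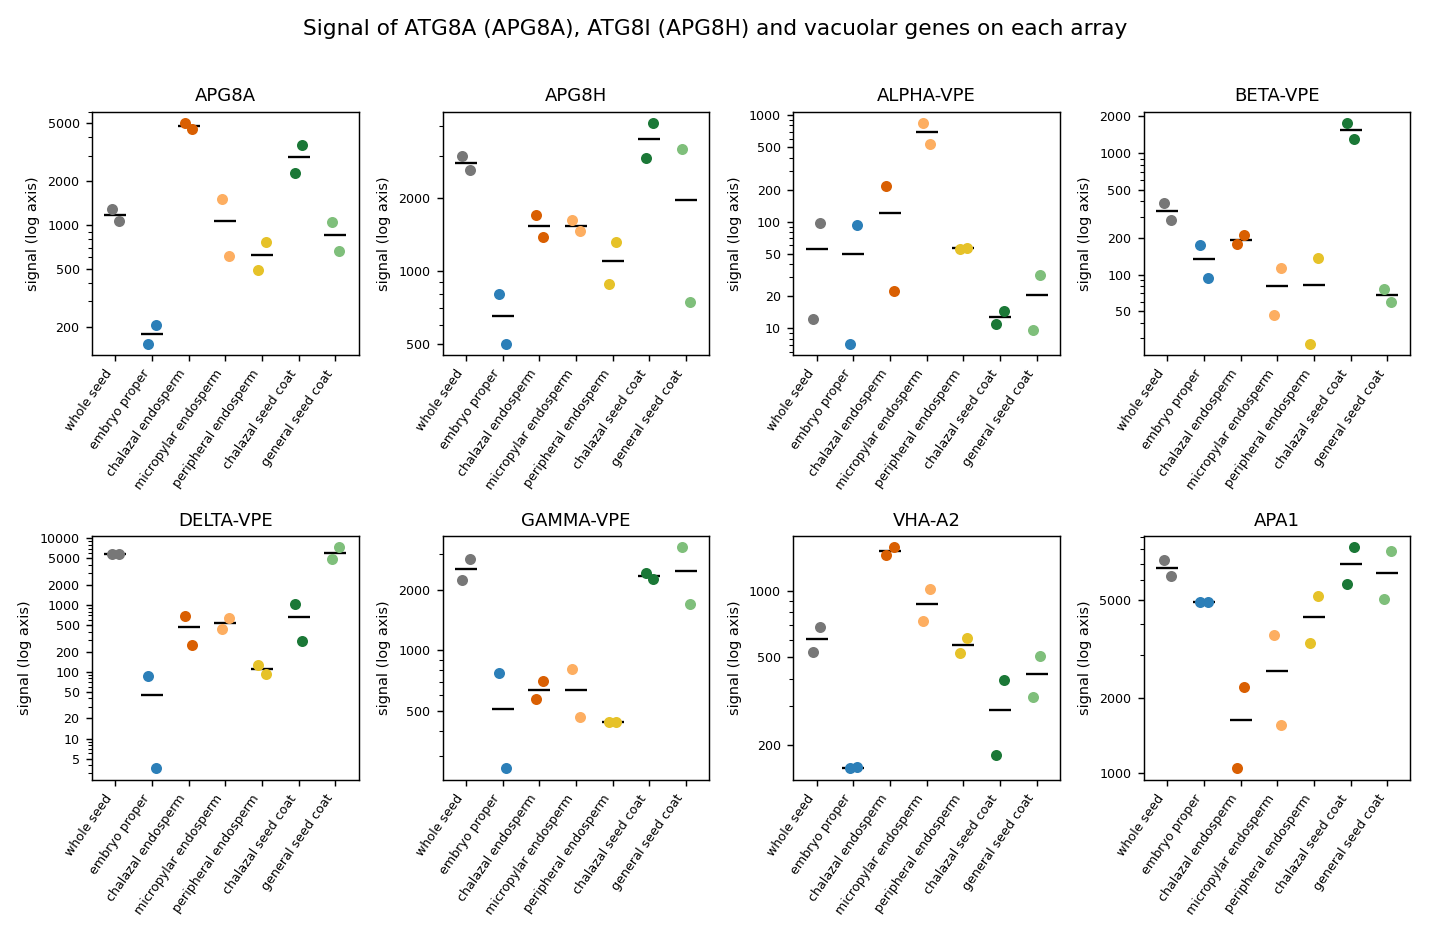
Signal of genes related to the pathway (vertical axis, scaled intensity, log scale) in the 7 groups (horizontal axis), with a point for each of the 2 arrays and a bar at their mean. APG8A stands highest in the chalazal endosperm at 5048 and 4561, DELTA-VPE in the general seed coat and BETA-VPE in the chalazal seed coat.

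The array annotation lists 2 more family members under an older symbol. APG8A (AT4G21980) is ATG8A, and APG8H (AT3G15580) is the gene now called ATG8I, which is not ATG8H. APG8A had 5048 and 4561 for the chalazal endosperm, against 2281 and 3579 for the chalazal seed coat, 1048 and 661 for the general seed coat, 1509 and 616 for the micropylar endosperm, 488 and 765 for the peripheral endosperm and 153 and 205 for the embryo proper. The chalazal endosperm stood highest and the embryo lowest, and neither overlapped another compartment. It was higher by 2.58 in the chalazal endosperm (SE 0.35, adjusted p = 9.85e-06) and by 1.69 in the chalazal seed coat (SE 0.35, adjusted p = 0.00102), and fell by 2.83 in the embryo (SE 0.35, adjusted p = 6.82e-06). Without the second chalazal seed coat array the call there was lost (1.37, adjusted p = 0.0685, in a range of 0.000212 to 0.0685).

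APG8H had 1706 and 1379 for the chalazal endosperm, to both sides of the 1623 and 1459 of the micropylar endosperm, and differed there by 0.11 (SE 0.38, adjusted p = 0.85). It had 2933 and 4113 for the chalazal seed coat, against 3209 and 742 for the general seed coat, and was higher in the chalazal seed coat by 1.5 (SE 0.38, adjusted p = 0.00516). It fell by 1.37 in the embryo (SE 0.38, adjusted p = 0.0105). Both calls were lost without the second array of their compartment, at adjusted p = 0.129 in the chalazal seed coat (range 0.00029 to 0.129) and 0.213 in the embryo (range 0.000588 to 0.213).

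AT5G66930, which the gene table lists also as ATG101, encodes a protein that in mammals belongs to the ATG1 kinase complex at the start of autophagy. It was looked up for that synonym, outside the fixed lists. It had 1486 and 1278 for the chalazal endosperm and 1046 and 1795 for the chalazal seed coat, against 404 and 422 for the general seed coat, 186 and 347 for the micropylar endosperm, 60.3 and 168 for the embryo proper and 57.9 and 107 for the peripheral endosperm. Both chalazal tissues stood above all other compartments without overlap. The differences were 2.18 in the chalazal endosperm (SE 0.45, adjusted p = 0.000773) and 2.17 in the chalazal seed coat (SE 0.45, adjusted p = 0.000922). The second was lost without the second chalazal seed coat array (adjusted p = 0.062, in a range of 0.000266 to 0.062).

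Of the lists of other genes around the pathway, the autophagy partners (30 names, such as the lipid kinase VPS34) and the proteasome subunits (55 names) had 0 genes with a single-gene probe set of that symbol, and so were not analysed here. Of the kinases TOR, which holds autophagy back, and SnRK1, which promotes it, only the partner subunits RAPTOR1 and RAPTOR2 of TOR and AKINBETA1 of SnRK1 could be read. By limma 0 of these 3 were called in the main fit in any compartment against the other 5. The unadjusted p was under 0.05 for RAPTOR1 in the micropylar endosperm (0.0443) and RAPTOR2 in the general seed coat (0.0138). RAPTOR2 was called lower in the general seed coat with quantile normalization (-1.3), array weights (-1.17) and the replicate block (-1.17). It was also called there without the first embryo (-1.3) or the first chalazal endosperm array (-1.33). Without that chalazal endosperm array it was called higher in the chalazal endosperm (1.51). RAPTOR2 was higher in the endosperm than in the seed coat by 1.01 (SE 0.36, adjusted p = 0.0303), a call lost in 6 of 22 alternatives. The arrays without which it was lost, with the log2 difference left, were the first of the micropylar endosperm (0.97), the second of the peripheral (0.95) and of the chalazal endosperm (0.74) and the first of the chalazal (0.88) and of the general seed coat (0.78).

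The list of vacuolar lytic enzymes and proton pumps, the end of the route, had 10 genes with a probe set. In the embryo proper 0 were called higher and 5 lower, where 13.2% and 12.1% of all tested probe sets were, with a median difference of -1.19 beside -0.07 over all of these. The 4 with the smallest adjusted p were DELTA-VPE, a vacuolar processing protease, at -3.26 (SE 0.47, adjusted p = 3.49e-05), SCPL49, a serine carboxypeptidase-like protein, at -2.01 (SE 0.35, adjusted p = 0.000202), AT3G58730, a subunit of the vacuolar proton pump, at -1.79 (SE 0.37, adjusted p = 0.0011), and VHA-A2, a subunit of the same pump, at -1.74 (SE 0.37, adjusted p = 0.00153). That of AT3G58730 was lost without the first embryo array (adjusted p = 0.115, in a range of 0.000226 to 0.115). The fifth, GAMMA-VPE at -1.08 (SE 0.37, adjusted p = 0.034), lost its call in 6 of 22 alternatives, 3 of them without the second embryo array (adjusted p = 0.659), the first chalazal seed coat array (0.0524) or the first general seed coat array (0.0594), in a range of 0.0133 to 0.659.

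In the chalazal endosperm 1 of the 10 was called higher and 1 lower, no more than the 12.2% and 18.7% of all tested probe sets, with a median difference of 0.09. VHA-A2 had 1448 and 1566 for the chalazal endosperm, above all other arrays, of which the highest was a micropylar one at 1017, and differed by 1.85 (SE 0.37, adjusted p = 0.000679). APA1, an aspartic protease, had 1043 and 2219 for the chalazal endosperm, which overlapped the 3613 and 1567 of the micropylar endosperm, and fell by 1.58 (SE 0.3, adjusted p = 0.000451). In the chalazal seed coat 2 of the 10 were called higher and 0 lower, near the 15.5% and 9.92% of all tested probe sets, with a median of 0.39. BETA-VPE, a vacuolar processing protease known from seeds, had 1773 and 1313 there, against 211 or less in every other compartment array, and differed by 3.53 (SE 0.47, adjusted p = 9.46e-06). GAMMA-VPE differed there by 1.66 (SE 0.37, adjusted p = 0.00188).

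In the general seed coat 3 of the 10 were called higher and 0 lower, where 13.2% and 8.07% of all tested probe sets were, with a median of 0.58. DELTA-VPE had 4862 and 7301 there, against 1030 and 293 for the chalazal seed coat, and differed from the other 5 compartments by 4.46 (SE 0.47, adjusted p = 6.47e-07). GAMMA-VPE differed by 1.66 (SE 0.37, adjusted p = 0.00223) and SCPL49 by 1.32 (SE 0.35, adjusted p = 0.00779). Without the first general seed coat array GAMMA-VPE was at 1.2 (adjusted p = 0.14, in a range of 0.000774 to 0.14), and SCPL49 was lost without either array (0.069 and 0.105, in a range of 0.00357 to 0.105).

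In the micropylar endosperm 2 of the 10 were called higher and 0 lower, where 9.86% and 11.5% of all tested probe sets were. The 2 were ALPHA-VPE, whose call the filter had favoured, and AT3G58730. ALPHA-VPE had 847 and 537 for the micropylar endosperm, against 218 or less in every other compartment array. It passed the filter on dim probe sets through that group alone, with 10 of 14 arrays under the 40th percentile. The filter thus favoured a difference, and no test of it is given. AT3G58730 had 1247 and 1229 and differed by 1.07 (SE 0.37, adjusted p = 0.0405). This call was lost in 11 of 22 alternatives, in a range of 0.0201 to 0.169. It was lost without either array of the micropylar endosperm (adjusted p = 0.146 and 0.169), without the first of the embryo proper (0.0606), the peripheral endosperm (0.0645) and the whole seed (0.0508) and the second of the chalazal (0.0642) and general seed coat (0.0599).

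In the peripheral endosperm 0 of the 10 were called higher and 2 lower, where 10.2% and 11.3% of all tested probe sets were. DELTA-VPE fell by 1.99 (SE 0.47, adjusted p = 0.00398), and was lost without the second peripheral array (adjusted p = 0.0812, in a range of 0.00123 to 0.117). GAMMA-VPE fell by 1.12 (SE 0.37, adjusted p = 0.0327), and was lost in 7 of 22 alternatives, in a range of 0.0123 to 0.194. Those with an array left out lacked either array of the peripheral endosperm (adjusted p = 0.194 and 0.186) or the first of the embryo proper (0.0525), the chalazal seed coat (0.0513) and the general seed coat (0.0571).

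Between the endosperm and the seed coat as a whole 2 of the 10 were called higher and 5 lower, where 14% and 22.2% of all tested probe sets were. The 4 with the smallest adjusted p were GAMMA-VPE at -2 (SE 0.31, adjusted p = 2.29e-05), DELTA-VPE at -2.5 (SE 0.39, adjusted p = 2.87e-05), APA1 at -1.39 (SE 0.25, adjusted p = 0.000152) and VHA-A2 at 1.35 (SE 0.31, adjusted p = 0.00149). Of the others, ALPHA-VPE was tested through the micropylar endosperm alone, so its place in the count of 2 called higher is no result. SCPL49, at -1.02, lost its call in 7 of 22 alternatives. The arrays without which SCPL49 fell short of the 2-fold limit were the second of the micropylar (-0.96) and of the chalazal endosperm (-0.94), the first of the peripheral endosperm (-0.86) and of the chalazal seed coat (-0.99) and the second of the general seed coat (-0.98).

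Of the list of senescence and starvation genes 4 had a probe set, and SAG29 did not pass the filter on dim probe sets. WRKY6, a transcription factor of senescing leaves, had 232 and 211 for the micropylar endosperm, above all 10 other compartment arrays. It too passed the filter through that group alone, with 10 of 14 arrays under the 40th percentile, so no test of it is given. SAG101 had 26.1 and 22.7 for the peripheral endosperm and fell by 1.62 (SE 0.53, adjusted p = 0.0304), a call lost in 7 of 22 alternatives. The arrays without which it was lost were both of the peripheral endosperm (adjusted p = 0.177 and 0.193), the first of the embryo proper (0.0557) and of the chalazal seed coat (0.0539) and the second of the general seed coat (0.0537), in a range of 0.0157 to 0.193. Between the endosperm and the seed coat as a whole SAG101 differed by -1.48 (SE 0.44, adjusted p = 0.00974) and WRKY53 by -1.3 (SE 0.46, adjusted p = 0.0294). SAG101 was lost without the first chalazal seed coat array (adjusted p = 0.065) or the second general seed coat array (0.0709), in a range of 0.00452 to 0.0709. WRKY53 was lost in 8 of 22 alternatives, in a range of 0.00991 to 0.146. Leave-outs that ended its call were the second array of the micropylar endosperm (adjusted p = 0.0796), of the chalazal endosperm (0.0856) and of the chalazal seed coat (0.146) and the first of the peripheral endosperm (0.0694) and of the general seed coat (0.137). In either chalazal compartment 0 of the 3 tested genes was called by limma against the other 5, and 0 had an unadjusted p under 0.05.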

How the data were processed

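Gene expression was measured on 14 ATH1 arrays in 7 groups of 2, as the sample labels give them. The deposited values are linear intensity values per probe set and array, made with GCOS per the submitters' processing notes; its version and algorithm are not given in the sources used here. With 2% of values left out at each end, the mean was 500.04 to 500.07 on every array, and array medians were 110.5 to 179.4. Precision is limited by the number of arrays. Probe sets were named from the platform annotation, which gives 1 gene symbol for 13513 probe sets and several for 503, and 13436 of the first matched the TAIR10.1 gene table, which was used for names only. Of several probe sets for a gene, that of highest mean signal would stand for it, a choice no ATG gene needed.

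Values were turned into log2(value + 35.9), the 25th percentile of all values. Of 22746 probe sets, 17336 were tested, which had both arrays of some group over the 40th percentile of the array. The linear model of group means used limma 3.58.1 under R 4.3.3 and a variance trend (7 residual and 13.4 prior degrees of freedom), and two-sided contrasts were adjusted by Benjamini-Hochberg over all tested probe sets. Calls needed an adjusted p under 0.05 and a log2 difference of at least 1, and the F test the first alone. The fit was tried on simulated data with 1 spread per probe set for all groups. That run does not cover the wider spread of the chalazal and micropylar endosperm. Medians and counts of a gene list describe it, and no test was made over a list.

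All ATG genes were named whatever their result. Genes of the other lists were described for each compartment against the other 5 and for endosperm against seed coat, and named there where called, up to 4 for each comparison and list by smallest adjusted p; a few more were named for a doubtful call, and pairs of regions for single genes only, and the 3 most alike genes were named for ATG8D and the 2 widest-ranging genes. The members, the lists and the compartment markers were chosen with earlier results of these data known. The place of the markers in their own tissue is thus no independent check. Replicate numbers were not used as a pairing of samples in the main fit. Deviations from group means correlated at -0.03 to 0.04 between same-numbered arrays, so no shared effect was seen. This cannot tell whether same-numbered regions came from the same plants. The 22 alternatives were no or another added value, quantile normalization, no filter or a stricter one, no variance trend, array weights, the replicate number as a block, and leaving out each of the 14 arrays. Detection calls and sequences were not used here.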

Additional observations from a re-analysis of the deposited data

Results flagged for a closer look

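In the interaction test of the chalazal difference, 2 of the 10 genes of the vacuolar list were called, near the 15.8% of all tested probe sets, and both encode vacuolar processing proteases. The chalazal minus peripheral difference in the endosperm exceeded the chalazal minus general difference in the seed coat by 4.98 on the log2 scale for DELTA-VPE (SE 0.86, limma adjusted p = 0.000577, from 4.6e-05 to 0.0336 over 22 alternatives). DELTA-VPE had 677 and 250 for the chalazal endosperm and 125 and 93.9 for the peripheral endosperm, and 1030 and 293 for the chalazal seed coat and 4862 and 7301 for the general seed coat.

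For BETA-VPE the same difference of differences was -2.78 (SE 0.86, limma adjusted p = 0.0322). BETA-VPE had 178 and 211 for the chalazal endosperm and 27 and 138 for the peripheral endosperm, and 1773 and 1313 for the chalazal seed coat and 76.1 and 59.9 for the general seed coat. This call was lost in 9 of 22 alternatives, with adjusted p between 0.00281 and 0.171. The arrays without which it was lost were the second of the peripheral endosperm (0.171), both of the chalazal endosperm (0.0618 and 0.0515), both of the chalazal seed coat (0.108 and 0.0662) and both of the general seed coat (0.0697 and 0.0907).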

How the results depend on the processing

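Over the 22 alternatives, 14 of which leave out 1 array each, the 104 combinations of an ATG gene and a comparison gave 2288 values. Of these 2204 kept their direction and side of the threshold, 56 lost the call, 28 gained one and 0 changed sign while called. Every gene of the report had 1 probe set, so another choice of probe set could not be tried. With quantile normalization the count of ATG genes called between chalazal and general seed coat was 2 in place of 1. The replicate number was also used as a block, though the labels do not give it as a pairing of samples. Then 6 ATG genes in place of 5 were called between chalazal and micropylar endosperm, ATG8C being added at 1.26 (limma adjusted p = 0.0477). Over the 15 pairs the count was 54 in place of 53. The block changed no other count of ATG genes. Over the alternatives that keep all arrays, the count in the chalazal endosperm ranged from 4 to 7.

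With 1 array left out, the lone array of that group is assumed to vary like the other groups. The count of ATG genes then ranged from 3 to 6 in the embryo proper (5 with all arrays), 1 to 2 in the micropylar (2), 2 to 3 in the peripheral (3) and 3 to 7 in the chalazal endosperm (6). It ranged from 3 to 4 in the chalazal seed coat (4), 1 to 2 in the general seed coat (2) and 2 to 3 between endosperm and seed coat (2). It was 4 to 5 for the chalazal against the peripheral (5) and against the micropylar endosperm (5), 0 to 0 for micropylar against peripheral (0), 0 to 2 for chalazal against general seed coat (1), 1 to 1 for the whole seed (1) and 0 to 2 for the interaction (0). It was 6 to 8 in the F test (7) and 43 to 52 over the pairs (53).

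Counts over all tested probe sets fell by over 1.5 times in some settings. With 1 array left out, the lowest were 2062 in the embryo proper (4394 with all arrays), 2226 in the micropylar (3697), 1664 in the peripheral (3719) and 3424 in the chalazal endosperm (5363), 2463 in the chalazal (4401) and 1876 in the general seed coat (3692). They were 2978 for chalazal against peripheral (4670) and 866 for micropylar against peripheral endosperm (2111), 797 for chalazal against general seed coat (1455), 615 for the whole seed (1860) and 1684 for the interaction (2743). Fewer arrays enter these fits. With no added value, 875 were called for chalazal against general seed coat, 1141 for the whole seed and 1781 for the interaction, and with array weights 2380 for chalazal against micropylar endosperm (4083). The cause of these was not tested.

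With 2 arrays a group, dim signals limit ATG8H and the low groups of ATG8B, ATG8G and SAG101, where values lay near or under the added 35.9. They limit ALPHA-VPE and WRKY6 further, which had 7 of 14 arrays each under that value.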
